A study of Homo sapiens with 12 samples.

Results

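Claudins, occludin, zonula occludens protein 1 and junctional adhesion molecule A are structural proteins of the epithelial tight junction, and their transcripts were followed in 2 human colorectal cancer cell lines given siRNA against BRG1. The genes were chosen by symbol, with earlier results of these data known: CLDN1, CLDN2, CLDN3, CLDN4, CLDN7, CLDN12, OCLN, TJP1 and F11R, 9 in all. Each of 8 had 1 row in the annotated array table, out of 17687 genes measured, and F11R, which encodes junctional adhesion molecule A, was not analysed here because the annotation used held no row under its symbol. DLD1 and HCT 116 are established lines of human colorectal carcinoma. Each received a control siRNA (siControl) or an siRNA to BRG1 (siBRG1), which gave 3 arrays in each of 4 groups, named here by line and siRNA. BRG1, encoded by SMARCA4, is the motor subunit of SWI/SNF complexes, which use ATP to move nucleosomes. Neither the siRNA sequence nor the interval between transfection and RNA extraction is given in the sources used here. For 4 HCT 116 arrays the source names carry other numbers for the line or the siRNA than the titles, and these arrays were grouped by title. The labels do not state that replicate arrays are independent cultures, and p-values therefore reflect the scatter of these 12 arrays, part or all of which may be technical.

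Tight junctions seal the space between neighbouring epithelial cells near their apical side. Claudins are membrane proteins that polymerise into strands. Some of them tighten the seal, and others, such as claudin 2, form pores for cations and water. Occludin is a further membrane protein of the strands, and zonula occludens proteins link claudins and occludin to the actin cytoskeleton. In the gut, claudin 2 belongs to the leaky crypt epithelium, while CLDN3, CLDN4 and CLDN7 are widely expressed along the epithelium.

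SMARCA4 checked the labels. In DLD1 it was at 10.31, 9.95 and 10.29 log2 units in the siControl arrays and at 6.29, 6.55 and 6.31 in the siBRG1 arrays. In HCT 116 it was at 10.12, 10.15 and 9.59 against 6.78, 6.39 and 7.03. The groups did not overlap in either line, and SMARCA4 changed by -3.80 and -3.22 log2 units (limma, adjusted p = 4.56e-07 and 1.14e-06). By exact 2-sided permutation of the array labels p was 0.1 in both lines, and no lower p can be had with 3 arrays against 3. Array medians over all features lay between 6.36 and 6.50. Of 10 epithelial markers 9 were measured, and 8 of these lay above the array medians in both DLD1 groups and 6 in both HCT 116 groups. Their mean per array was 12.96 to 13.27 in DLD1 and 10.36 to 10.75 in HCT 116. VIL1, CDH17 and ELF3 were low in HCT 116. Of 15 markers of fibroblasts, immune and endothelial cells 13 were measured, with array means of 4.50 to 4.93. Only COL1A2 lay above the array medians in all 4 groups, and CD68 did so in HCT 116 siBRG1, where it rose by 1.29 (limma, adjusted p = 0.0036). The part of these markers in the results below was not tested. Fewer cells of a kind and less RNA per cell cannot be told apart in these arrays.

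The stretches of DNA just before the gene starts are shown for 4 of the 8 genes. The windows shown for CLDN2 and CLDN4 hold matches to the AP-1 motif bound by JUN. Those shown for CLDN7 and OCLN hold matches to the E-box motif bound by SNAI and ZEB factors. Each is the 250 bases before a transcript start in RefSeq (GRCh38.p14), written 5′ to 3′ on the strand of the gene. Capitals mark matches on either strand to CAGGTG (the E-box), TGANTCA (AP-1) or GGGCGG (the GC box of SP1).
CLDN2, chrX:106899914-106900163, plus strand: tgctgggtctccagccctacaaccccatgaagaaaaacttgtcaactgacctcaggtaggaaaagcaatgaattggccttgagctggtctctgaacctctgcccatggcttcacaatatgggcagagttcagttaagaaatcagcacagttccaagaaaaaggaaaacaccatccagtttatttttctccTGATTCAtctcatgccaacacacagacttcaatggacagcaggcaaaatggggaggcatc
CLDN4, chr7:73830746-73830995, plus strand: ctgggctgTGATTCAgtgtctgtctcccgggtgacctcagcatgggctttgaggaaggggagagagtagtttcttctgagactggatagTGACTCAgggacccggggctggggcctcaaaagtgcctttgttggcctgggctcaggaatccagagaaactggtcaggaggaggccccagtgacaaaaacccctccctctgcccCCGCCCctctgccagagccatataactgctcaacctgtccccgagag
CLDN7, chr17:7262479-7262728, minus strand: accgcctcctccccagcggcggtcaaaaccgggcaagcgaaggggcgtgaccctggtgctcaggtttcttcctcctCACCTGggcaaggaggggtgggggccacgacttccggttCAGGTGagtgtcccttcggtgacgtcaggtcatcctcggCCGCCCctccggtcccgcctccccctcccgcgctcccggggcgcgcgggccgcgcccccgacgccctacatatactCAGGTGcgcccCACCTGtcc
OCLN, chr5:69492297-69492546, plus strand: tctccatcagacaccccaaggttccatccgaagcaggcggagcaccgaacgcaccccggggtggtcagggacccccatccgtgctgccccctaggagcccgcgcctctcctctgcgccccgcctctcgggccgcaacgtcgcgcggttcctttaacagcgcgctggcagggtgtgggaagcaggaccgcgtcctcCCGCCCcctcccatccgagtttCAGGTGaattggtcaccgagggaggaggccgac

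RefSeq listed 14 such windows for the 8 genes, since CLDN2, CLDN7, OCLN and TJP1 have more than 1 start. The E-box was found in 4 of the 14 (28.6%), against 17.5% of 35116 windows of the same length over all genes. The CLDN7 window shown holds 4 E-box matches, both OCLN windows hold 1 each, and 1 of 4 TJP1 windows holds 1. AP-1 was found in 2 of the 14 (14.3%), against 6.57% of all windows, with 1 match in CLDN2 and 2 in CLDN4. The GC box was found in 8 of the 14 (57.1%), against 42.6% of all windows. The E-box and GC box do not share bases in the windows shown. A match describes the letters only. The windows of CLDN3 and CLDN4 lie 60225 bases apart on chromosome 7, with the genes on opposite strands and running away from each other.

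After BRG1 siRNA, occludin was the only gene of the 8 that passed the test within a line. It did so in HCT 116, close to the threshold, and its changes in the 2 lines did not differ by the test. All tests were limma fits of the 4 groups across the 17687 genes, with Benjamini-Hochberg adjustment and a call at an adjusted p under 0.05. In DLD1 none of the 8 was called, where 0.198% of all genes were (35 genes, 12 or 0.0678% higher and 23 or 0.130% lower), and 2 of the 8 had an unadjusted p under 0.05 (CLDN2 and OCLN). The DLD1 count was 98 with a replicate block within each line and 106 with the block in DLD1 only. In HCT 116 1 of the 8 was called, higher, where 6.95% of all genes were called in either direction (1230 genes) with 2.82% higher and 4.13% lower. A count of 1 of 8 does not set these genes apart from all genes. In HCT 116 3 of the 8 had an unadjusted p under 0.05. The share of all genes at that unadjusted p was not counted for any comparison. Such counts, of the 8 and of the lists below, therefore have no share to be read against. The split of all HCT 116 calls was 499 higher and 731 lower on the deposited scale, and 615 and 565 after centring each array on its median. The median change of the 8 was 0.29 in DLD1, with 6 positive and 2 negative, and -0.12 in HCT 116, with 4 of each sign. Over all genes the medians were 0.01 and -0.01. The siBRG1 arrays did not overlap the siControl arrays for 3 of the 8 in DLD1 and 4 of the 8 in HCT 116, where 15.5% and 24.9% of all genes did not.

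**Figure D1:**
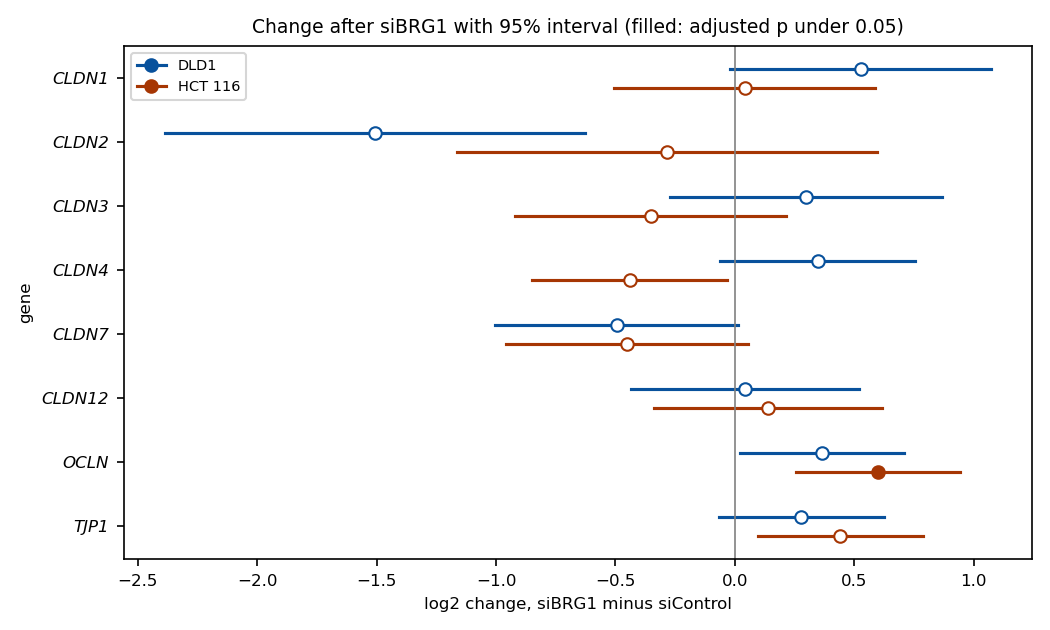
Change after BRG1 siRNA (log2, siBRG1 minus siControl) of the 8 genes in DLD1 and in HCT 116. Points are differences of the means of 3 arrays, bars are 95% intervals of the limma fit, and a filled point passed an adjusted p of 0.05; OCLN in HCT 116, at 0.60, is the filled point, and CLDN2 in DLD1, at -1.51, lies farthest from 0.

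OCLN encodes occludin. In HCT 116 it read 12.61, 12.33 and 12.52 log2 units in the siControl arrays and 13.02, 13.14 and 13.11 in the siBRG1 arrays. Every siBRG1 array lay above every siControl array. It rose by 0.60 (SE 0.16, 95% interval 0.26 to 0.94; limma, adjusted p = 0.037). In DLD1 it read 13.33, 13.08 and 13.22 against 13.66, 13.56 and 13.50. These groups did not overlap either, with a difference of 0.36 (SE 0.16, interval 0.02 to 0.71) that missed the threshold (adjusted p = 0.442). The changes in the 2 lines differed by 0.23, with an interval of -0.25 to 0.72 (adjusted p = 0.869). Averaged over both lines, OCLN rose by 0.48 (SE 0.11, interval 0.24 to 0.72; adjusted p = 0.0178), where 8.68% of all genes were called, 4.01% higher and 4.68% lower. The HCT 116 call was close to the threshold: it held in 16 of 23 alternative settings, with adjusted p from 0.00945 to 0.149. It was lost with HCT 116 fitted alone (0.0834), without HCT 116 siControl replicate 2 (0.149) or 3 (0.0889), without HCT 116 siBRG1 replicate 1 (0.0555), 2 (0.112) or 3 (0.109), and without DLD1 siControl replicate 3 (0.0522). The averaged call was lost only without HCT 116 siControl replicate 2 (0.0533). A pseudogene, OCLNP1, resembles OCLN, as TJP1P1 and CLDN7P1 resemble TJP1 and CLDN7, and the probes may not tell them apart.

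TJP1 encodes zonula occludens protein 1, the scaffold that binds occludin and claudins on their inner side. Its HCT 116 arrays read 12.93, 12.76 and 12.83 with siControl and 13.30, 13.30 and 13.26 with siBRG1. In DLD1 they read 13.46, 13.56 and 13.37 against 13.58, 13.71 and 13.93. In both lines the siBRG1 arrays all lay above the siControl arrays, as they did for OCLN. The differences were 0.44 (SE 0.16, interval 0.10 to 0.79; limma, adjusted p = 0.122) in HCT 116 and 0.28 (SE 0.16, adjusted p = 0.62) in DLD1, and neither was called. The average over both lines was 0.36 (SE 0.11, adjusted p = 0.0668). That average passed under 3 other settings: only genes above the median level (0.028), a trended and robust prior (0.0238) and array weights (0.0239).

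CLDN2 encodes the pore-forming claudin 2 and had the largest difference of the 8 in DLD1. It read 11.34, 11.84 and 11.17 in the siControl arrays and 10.26, 10.74 and 8.83 in the siBRG1 arrays. All 3 siBRG1 arrays were below all 3 siControl arrays, and replicate 3 lay well below the other two. The difference was -1.51, or 2.84-fold lower (SE 0.41, interval -2.39 to -0.63), and it was not called (limma, adjusted p = 0.165). Without siBRG1 replicate 3 it was -0.95 (adjusted p = 0.643). Same-numbered DLD1 arrays deviated together, so the replicate number was also used as a block, a choice made after seeing the data. With the block in DLD1 alone the adjusted p was 0.0651, which is no call. With the block within each line it was 0.0409, which is a call. That fit also blocks HCT 116, where the numbers were not taken to pair the arrays. In HCT 116 CLDN2 read 4.96, 5.44 and 5.73 against 4.62, 4.89 and 5.77, all below the array medians, with a difference of -0.29 (interval -1.16 to 0.59; adjusted p = 0.778). The change in HCT 116 minus that in DLD1 was 1.22 (SE 0.58, adjusted p = 0.569). The average over both lines was -0.90 (SE 0.29, adjusted p = 0.0731). The averaged adjusted p fell to 0.0274 with the block in DLD1, 0.0105 with the block within each line, 0.0303 without DLD1 siBRG1 replicate 2, 0.0483 without HCT 116 siBRG1 replicate 3, 0.0488 with only genes above the median level and 0.0469 with array weights.

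CLDN7, a claudin with a broad distribution along the intestinal epithelium, was lower on average in both lines without passing the test in either. In DLD1 it read 13.97, 14.01 and 13.28 with siControl and 13.57, 13.40 and 12.80 with siBRG1, and the groups overlapped. In HCT 116 it read 13.13, 12.70 and 13.05 against 12.57, 12.47 and 12.48, with no overlap. The differences were -0.50 (SE 0.24; limma, adjusted p = 0.492) and -0.45 (SE 0.24, interval -0.96 to 0.06; adjusted p = 0.312). They were 0.04 apart, with an interval of -0.67 to 0.76. The average was -0.47 (SE 0.17, adjusted p = 0.103). It passed with the replicate block in DLD1 (0.023), with the block within each line (0.0172) and without DLD1 siControl replicate 3 (0.0461).

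CLDN3 and CLDN4, the neighbours on chromosome 7, encode claudins 3 and 4, which are also receptors for a Clostridium perfringens enterotoxin. CLDN4 read 14.53, 14.42 and 14.17 in DLD1 siControl and 15.02, 14.74 and 14.40 in DLD1 siBRG1. In HCT 116 it read 12.66, 12.70 and 12.74 against 12.46, 12.22 and 12.10. The HCT 116 groups did not overlap and the DLD1 groups did. The differences were 0.35 (SE 0.19; limma, adjusted p = 0.58) in DLD1 and -0.44 (SE 0.19, interval -0.85 to -0.03; adjusted p = 0.205) in HCT 116. The change in HCT 116 minus that in DLD1 was -0.79 (SE 0.27, interval -1.36 to -0.21). It was the 1 difference of the 8 with an unadjusted p under 0.05, and it was not called (adjusted p = 0.332). None of the 8 was called in that comparison, where 0.334% of all genes were.

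For CLDN3 the spread was wider. Its DLD1 arrays read 8.53, 8.83 and 8.38 against 9.47, 8.77 and 8.39, a difference of 0.30 (SE 0.27; limma, adjusted p = 0.798). Without siBRG1 replicate 1, the highest of these arrays, it was 0.0012. Its HCT 116 arrays read 7.24, 7.76 and 8.02 against 7.11, 7.45 and 7.40, a difference of -0.35 (SE 0.27, adjusted p = 0.521). The groups overlapped in both lines. The change in HCT 116 minus that in DLD1 was -0.65 (interval -1.45 to 0.15, adjusted p = 0.692).

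CLDN1 encodes a sealing claudin that is a target of Wnt signalling in colorectal cancer. In DLD1 it read 9.53, 9.72 and 9.51 with siControl and 9.59, 10.31 and 10.43 with siBRG1. Replicate 1 of siBRG1 lay among the controls and the other two above them, and the difference was 0.53 (SE 0.26, interval -0.02 to 1.07; limma, adjusted p = 0.497). In HCT 116 it read 3.56, 3.76 and 3.34 against 3.68, 3.09 and 4.0, far below the array medians, where signal and background could not be separated. CLDN12 encodes a claudin without the usual PDZ-binding end. It read 10.88, 11.06 and 10.36 against 10.75, 11.15 and 10.51 in DLD1, and 10.21, 10.31 and 10.54 against 10.26, 10.55 and 10.66 in HCT 116. Its differences were 0.04 (interval -0.44 to 0.52) and 0.14 (interval -0.34 to 0.62).

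**Figure D2:**
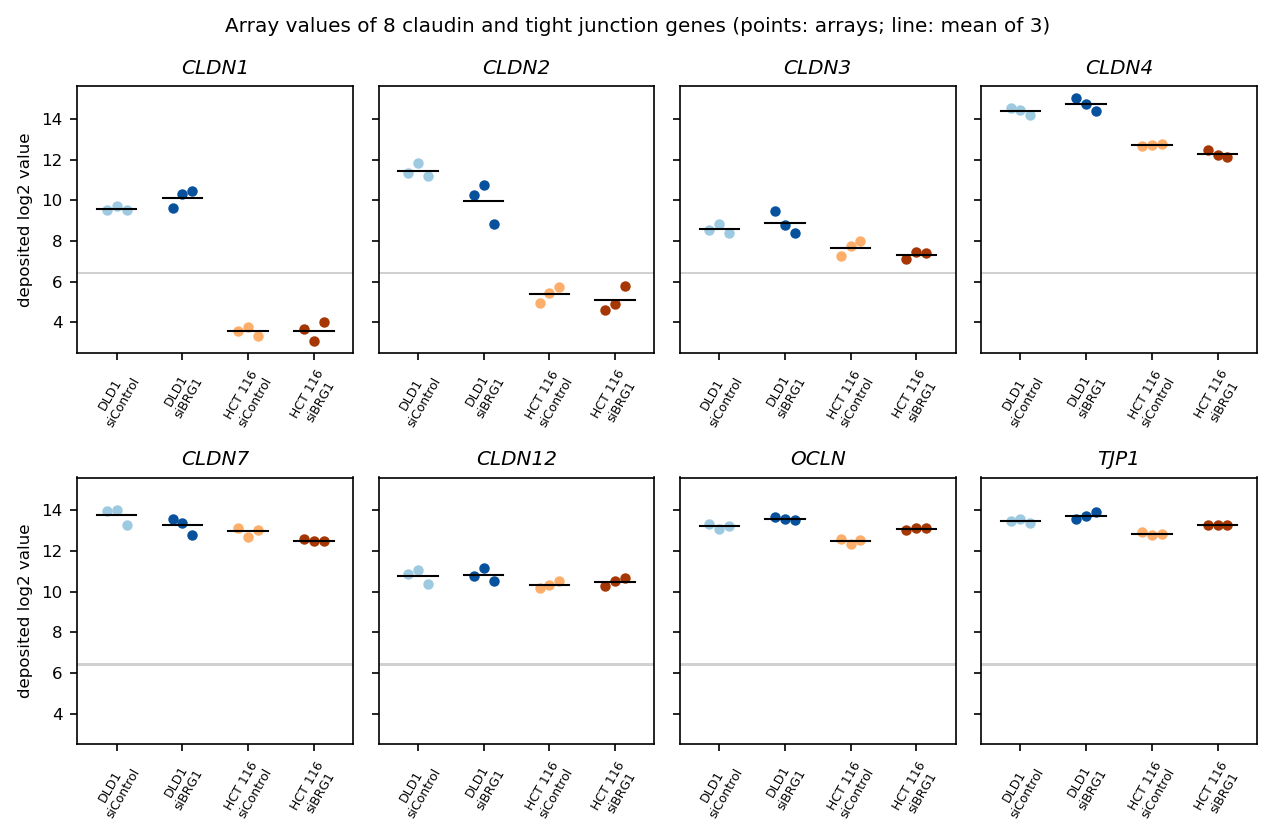
Level of each of the 8 genes in every array (log2, deposited scale), with 1 panel per gene and 3 arrays in each of the 4 groups. Points are arrays, black lines are means of 3 and the grey band is the range of the array medians, 6.36 to 6.50; CLDN1 and CLDN2 lie above the band in DLD1 and below it in HCT 116.

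Most of these genes differed between the 2 lines, whichever siRNA was given. With siControl, 7 of the 8 were lower in HCT 116 than in DLD1 and none was higher, where 27.6% of all genes were called, 14.0% lower and 13.6% higher. With siBRG1 it was again 7 of 8, where 30.8% of all genes were called and 16.8% were called lower. Because the genes were chosen with earlier results of these data known, these counts describe the chosen genes only. The median difference of the 8 was -0.85 with siControl and -1.15 with siBRG1, where the medians over all genes were 0.03 and 0.03. HCT 116 minus DLD1 was -6.04 log2 units for CLDN1 (SE 0.26; limma, adjusted p = 8.12e-11) and -6.07 for CLDN2 (SE 0.41, adjusted p = 2.12e-08) with siControl. Since both lay below the array medians in HCT 116, the size of these differences is uncertain. The difference was -1.67 for CLDN4 (SE 0.19, adjusted p = 7.09e-06), -0.72 for OCLN (SE 0.16, adjusted p = 0.00307) and -0.62 for TJP1 (SE 0.16, adjusted p = 0.0088). It was -0.91 for CLDN3 (adjusted p = 0.0185) and -0.79 for CLDN7 (adjusted p = 0.0208). CLDN12 differed by -0.41 (interval -0.89 to 0.07, adjusted p = 0.208) and was not called.

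The siBRG1 arrays gave the same order of lines, with HCT 116 minus DLD1 at -6.52 for CLDN1, -4.85 for CLDN2, -2.46 for CLDN4 and -1.56 for CLDN3. It was -0.75 for CLDN7 (limma, adjusted p = 0.0253), -0.49 for OCLN (0.0316) and -0.46 for TJP1 (0.0436), while CLDN12, at -0.31 (0.338), was not called. OCLN and TJP1 lost these calls with a further quantile normalization (0.0616 and 0.0923) and with centring (0.072 and 0.0734), and TJP1 with a replicate block common to both lines (0.0523). TJP1 also lost the call without any of 10 of the 12 arrays, all but DLD1 siBRG1 replicate 1 and HCT 116 siControl replicate 1, at adjusted p of 0.0514 to 0.166. OCLN lost it without any of the 6 siBRG1 arrays (0.0514 to 0.0914). CLDN7 lost it without DLD1 siBRG1 replicate 1 (0.11) or 2 (0.0852) or HCT 116 siBRG1 replicate 2 (0.066) or 3 (0.0659). With siControl, CLDN7 lost its call without DLD1 siControl replicate 1 (0.0838) or 2 (0.0879) or HCT 116 siControl replicate 2 (0.0917), and CLDN3 without DLD1 siControl replicate 2 (0.0758) or HCT 116 siControl replicate 1 (0.0879).

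**Figure D3:**
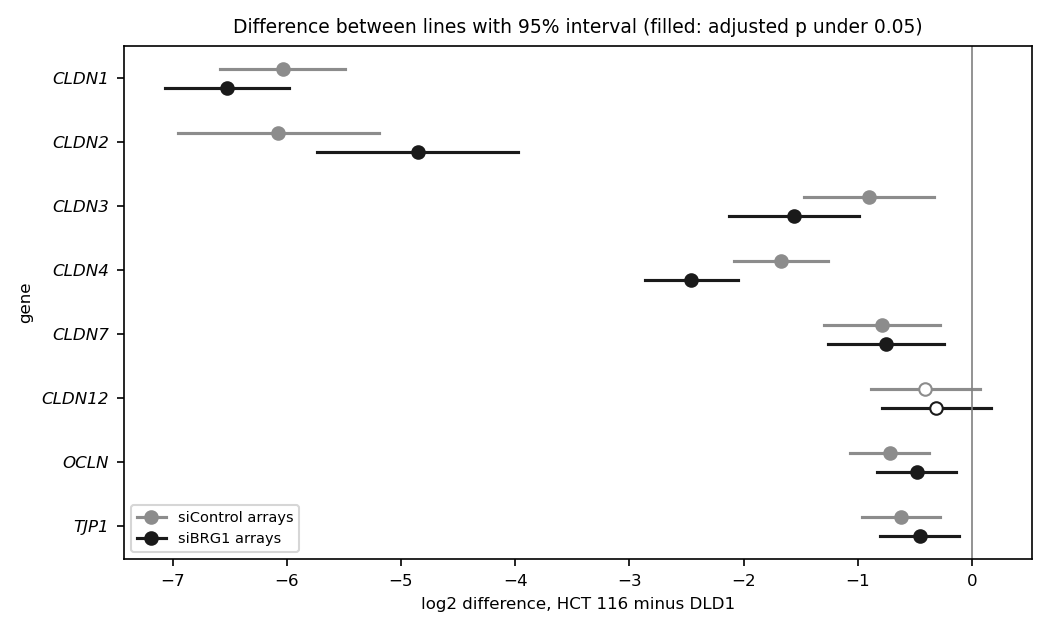
Difference between the lines (log2, HCT 116 minus DLD1) for the 8 genes, with siControl and with siBRG1. Points are differences of means of 3 arrays, bars are 95% intervals of the limma fit and filled points passed an adjusted p of 0.05; all points lie below 0, from -6.52 for CLDN1 with siBRG1 to -0.31 for CLDN12 with siBRG1.

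The genes whose levels followed each of these most closely were found over the 12 arrays, which separate by line, so the correlations are a description with no test. CLDN1 was followed by TMPRSS2 (Pearson r = 0.998) and DOCK8 (0.996), CLDN2 by LIPG (0.988) and CASP10 (0.986), and CLDN4 by HPGD (0.99) and SDR16C5 (0.989). CLDN3 was followed by BSPRY (0.97) and TSKU (0.967), and CLDN7 by TMT1A (0.97) and DENND10 (0.966). OCLN was followed by TNFAIP1 (0.967) and TPMT (0.965), and TJP1 by ZBTB38 (0.98) and MYO9A (0.976).

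The remaining claudins, 18 genes, had every group mean below the array medians, so the sizes of their differences are uncertain. None was called in DLD1 or in HCT 116 (limma; 1 and 2 had an unadjusted p under 0.05), and none was called between the siControl lines. With siBRG1, 1 of the 18 was called higher in HCT 116 than in DLD1, where 14.0% of all genes were called higher. The median change of the 18 after BRG1 siRNA was 0.03 in DLD1 and 0.17 in HCT 116. The largest differences were 0.74 for CLDN34 in DLD1 and 0.71 for CLDN15, a pore-forming claudin of the gut, in HCT 116. CLDN34 passed on average over both lines, at 0.54 (adjusted p = 0.0447), but without any of 10 arrays, all but DLD1 siBRG1 replicate 1 and HCT 116 siBRG1 replicate 2, its adjusted p was 0.059 to 0.104. CLDN34 lay below the array medians in every group.

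Of 14 other membrane proteins of the junction 12 were measured, and none was called in either line (limma; 1 in DLD1 and 3 in HCT 116 had an unadjusted p under 0.05). The medians were 0.15 and -0.09. ILDR2, of the angulin family that marks the corners where 3 cells meet, had the largest difference in both, at -0.80 and -0.68. It lay below the array medians in DLD1 siBRG1 and in both HCT 116 groups, so these sizes are uncertain. Its average of -0.74 passed (adjusted p = 0.0382), and without any of 8 arrays it was at 0.0605 to 0.111. The arrays that could be left out with the call kept were DLD1 siControl replicate 1, DLD1 siBRG1 replicate 2, HCT 116 siControl replicate 2 and HCT 116 siBRG1 replicate 2.

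Of 30 scaffold and polarity proteins of the junction 24 were measured. None was called in DLD1 (limma; 4 had an unadjusted p under 0.05), with the largest difference, 1.15, in CGN, which encodes cingulin (7.18, 6.70 and 7.67 against 7.75, 8.29 and 8.97; adjusted p = 0.15). With the replicate block within each line CGN passed (0.0496), which it did not with the block in DLD1 only. In HCT 116 2 were called, both higher. PARD6B, a subunit of the PAR polarity complex, read 11.49, 11.43 and 11.27 with siControl and 12.63, 12.96 and 12.77 with siBRG1. It rose by 1.39, or 2.63-fold (SE 0.17, adjusted p = 0.000234), and stayed called under all 23 alternatives. VASP, an actin regulator, rose by 0.97 (SE 0.23, adjusted p = 0.0177). It was at 0.0574, 0.0531 and 0.0562 without HCT 116 siControl replicate 1, siBRG1 replicate 2 and siBRG1 replicate 3. The medians of the list were 0.16 in DLD1 and 0.04 in HCT 116. On average over both lines PARD6B rose by 0.76, CGN by 0.80 and ARHGEF18 by 0.46 (adjusted p = 0.00149, 0.0331 and 0.0415). CGN lost that call without any of 8 arrays (0.0572 to 0.0896), all but DLD1 siControl replicate 3, DLD1 siBRG1 replicate 1, HCT 116 siControl replicate 1 and HCT 116 siBRG1 replicate 3. ARHGEF18 lost it without any of 10 (0.0586 to 0.119), all but DLD1 siControl replicate 3 and DLD1 siBRG1 replicate 1. In HCT 116 the means of CGN, 5.75 with siControl and 6.21 with siBRG1, lay below the array medians.

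Of 17 adherens junction and desmosome genes 16 were measured. None was called in DLD1 (limma; 1 had an unadjusted p under 0.05), with the largest difference, 1.02, in the desmosomal cadherin DSC2. In HCT 116 3 were called, all lower: NECTIN1, an adhesion receptor, fell by 1.06 (SE 0.24, adjusted p = 0.0161), CDH3, which encodes P-cadherin, fell by 0.90 (SE 0.20, adjusted p = 0.0136), and CTNNA1, the alpha-catenin that ties cadherins to actin, fell by 0.82 (SE 0.17, adjusted p = 0.00985). The CTNNA1 call held in all 23 alternatives. NECTIN1 lost its call without HCT 116 siControl replicate 3 (0.0652) or siBRG1 replicate 3 (0.0732), and CDH3 without HCT 116 siControl replicate 2 or 3 or siBRG1 replicate 2 or 3 (0.0554 to 0.0611). NECTIN3 was 0.64 higher in HCT 116 siBRG1 (adjusted p = 0.08), with no overlap of the arrays (13.93, 13.72 and 14.04 against 14.39, 14.67 and 14.54). It passed in 6 of 23 alternatives: the replicate block within each line (0.0468) and in DLD1 only (0.0454), centring (0.0451), the filter at the median level (0.0443), array weights (0.0251) and without DLD1 siBRG1 replicate 1 (0.0389). The medians of the list were 0.25 in DLD1 and -0.12 in HCT 116. On average CTNNA1 fell by 0.52 (adjusted p = 0.0153) and NECTIN3 rose by 0.50 (adjusted p = 0.0465), a call that was kept in only 1 of the 12 fits that each left out 1 array, that without DLD1 siBRG1 replicate 1 (0.0518 to 0.115 in the others).

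**Figure D4:**
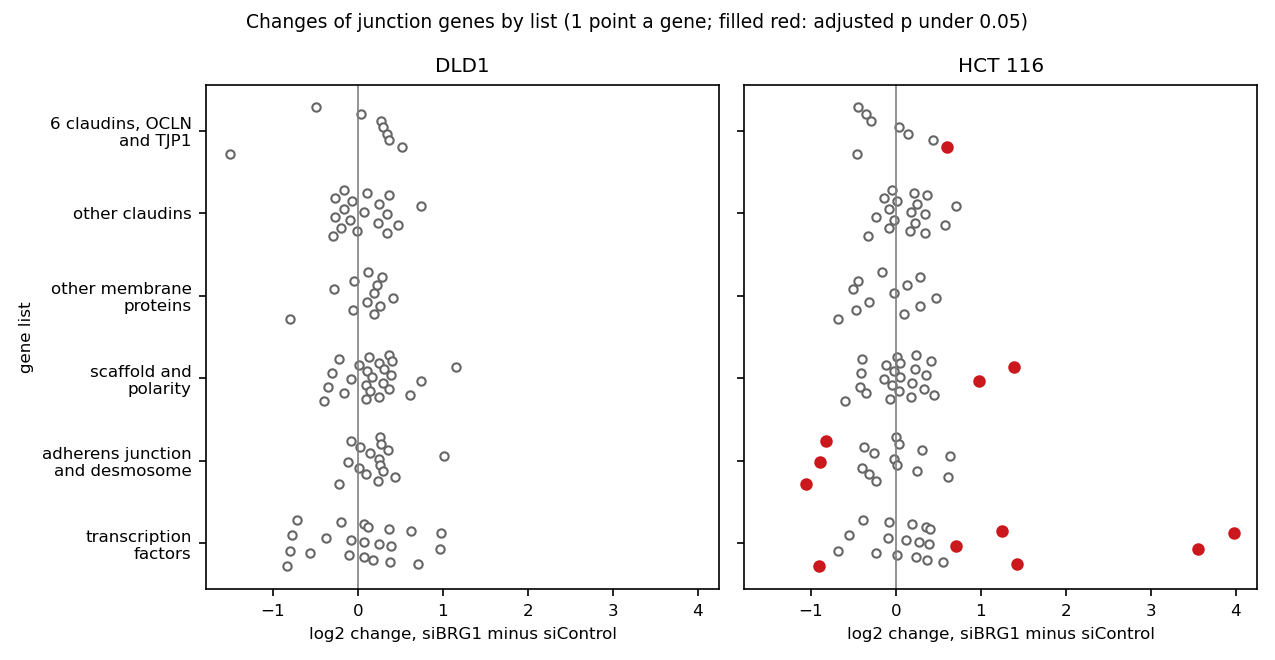
Change after BRG1 siRNA (log2, siBRG1 minus siControl, horizontal axis) of every measured gene of the junction lists and of the transcription factors, in DLD1 and HCT 116. Each point is 1 gene, filled red where its adjusted p was under 0.05, with vertical offsets only to keep points apart; no gene of these lists is filled in DLD1, and the rightmost filled points in HCT 116 are the transcription factors JUN at 3.98 and SNAI2 at 3.56.

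Among transcription factors known to act on claudin or occludin genes, 22 of 24 were measured. None was called in DLD1 (limma; 7 had an unadjusted p under 0.05), and in HCT 116 5 rose and 1 fell. The medians of the list were 0.07 and 0.26. JUN, a subunit of AP-1, read 6.29, 7.07 and 6.81 in HCT 116 siControl and 10.17, 11.15 and 10.78 in HCT 116 siBRG1. It rose by 3.98, or 15.7-fold (SE 0.31, adjusted p = 5.15e-06). In DLD1 it read 7.19, 7.87 and 7.90 against 9.02, 8.08 and 8.81, a difference of 0.98 that was not called (adjusted p = 0.232).

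SNAI2, a zinc finger repressor that binds E-boxes, read 4.03, 5.54 and 5.27 in HCT 116 siControl and 7.97, 9.02 and 8.53 in HCT 116 siBRG1. It rose by 3.56 (SE 0.34; limma, adjusted p = 4.4e-05), from below the array medians to above them, so the size of the rise is uncertain. In DLD1 it stayed below them, at 4.84, 4.90 and 4.81 against 4.59, 4.09 and 4.74. ZEB1, a further E-box repressor of epithelial genes, rose in HCT 116 by 1.43 (adjusted p = 0.0108), from 8.79, 8.13 and 7.87 to 9.54, 9.84 and 9.72, and was at 0.0533 without HCT 116 siControl replicate 3. In DLD1 it lay below the array medians.

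GRHL3, a grainyhead factor of epithelial barrier genes, rose in HCT 116 by 1.25 (limma, adjusted p = 0.00352), from 8.08, 8.09 and 7.69 to 9.38, 9.11 and 9.12. Its relative GRHL2, a known activator of claudin genes, there fell by 0.91 (adjusted p = 0.0148), from 9.0, 9.01 and 9.07 to 8.58, 8.04 and 7.73. KLF5, a factor of proliferating crypt cells, rose by 0.71 (adjusted p = 0.0148). GRHL2 and KLF5 are named here after their values were seen. GRHL2 lost its call without HCT 116 siControl replicate 2 or 3 or siBRG1 replicate 2 or 3 (0.0505 to 0.074) and with HCT 116 fitted alone (0.0564), and KLF5 without HCT 116 siControl replicate 3 (0.058) or siBRG1 replicate 2 (0.0571). On average over both lines JUN rose by 2.48, SNAI2 by 1.59, GRHL3 by 0.81 and ZEB1 by 0.75, and ZEB1 lost that call without any of 8 arrays (0.0535 to 0.116), all but DLD1 siControl replicate 2, DLD1 siBRG1 replicates 1 and 2 and HCT 116 siControl replicate 1. The averaged ZEB1 call was also lost with a replicate block common to both lines (0.0539). KLF5 too was called higher on average, which made 5 factors. It lost that call without any of 5 arrays (limma, adjusted p = 0.0562 to 0.0648). The E-box was in both OCLN windows, in 1 of 4 TJP1 windows and in 1 of 2 CLDN7 windows. In HCT 116 OCLN was called higher, while TJP1 lay higher and CLDN7 lower without a call. With an AP-1 match, CLDN4 lay lower there without a call, and CLDN2 stayed below the array medians. Whether these factors have a part in those values was not tested.

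**Figure D5:**
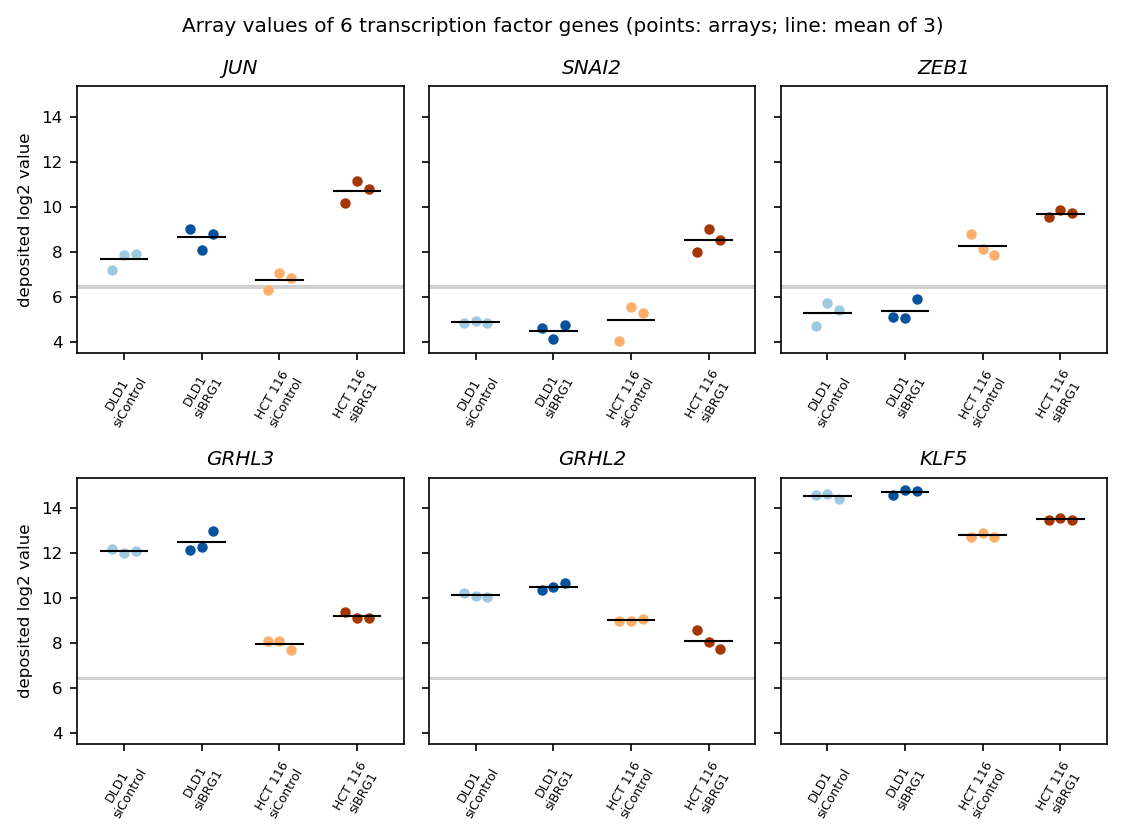
Level of transcription factors in every array (log2, deposited scale), with 3 arrays in each of the 4 groups. Points are arrays, black lines are means of 3 and the grey band is the range of the array medians, 6.36 to 6.50; JUN and SNAI2 in HCT 116 siBRG1 stand 3.98 and 3.56 above HCT 116 siControl, and all 3 GRHL2 arrays of HCT 116 siBRG1 lie below those of HCT 116 siControl.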

How the data were processed

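Total RNA of the 12 samples was labelled with biotin and hybridised to 1-colour Affymetrix arrays, 1 per sample. Per the submitters' processing notes, the authors used Affymetrix Power Tools and RMA, which corrects background, applies quantile normalization and summarises probes, and the deposited values are log2 levels. No version or genome build is given in the sources used here. Values run from 2.16 to 18.05. Those above 16 are brighter than a 16-bit scanner can record, so a step beyond RMA that is not stated may have been applied. Whether such a step altered the size of the log2 changes and folds is not known. There are no detection calls, and the number of arrays limits the precision.

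Features were named through the platform annotation, updated by Entrez ID. Of 21448 features 17709 had 1 symbol, 0 had several and 3739 had none. Where a gene had several features (20 genes) the row with the highest mean stood for it, which left 17687.

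limma 3.58.1 (R 4.3.3) fitted the 4 group means (8 residual and 6.66 prior degrees of freedom), with Benjamini-Hochberg adjustment over all genes, for the siRNA change (siBRG1 minus siControl) of each line, the average and difference of both changes, and HCT 116 minus DLD1 under each siRNA. These comparisons share arrays. The steps were tested on simulated data. The genes and lists were chosen with earlier results of these data known. Genes named were the 9 chosen genes and, of each other list and siRNA comparison, up to 4 called genes with the largest change, or the 1 with the largest change where none was called, and for each of the 9 called in any comparison the 2 genes with the highest Pearson r.

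Titles number the arrays 1 to 3. Between arrays of the same number, deviations from their group means had correlations across genes of 0.49, 0.46 and 0.29 in DLD1, all above 0.1, and of 0.30, 0.15 and 0.03 in HCT 116. The numbers were therefore taken to pair the DLD1 arrays, from the data and not from the labels. The main fit held no replicate term, so its DLD1 results are unpaired, and pairing entered only through the replicate blocks. Alternatives were replicate blocks, each line alone, further quantile normalization, centring, filters at the median and lower quartile of level, array weights, the mean of features, a trended and robust prior and each array left out. The blocks within each line and in DLD1 only were chosen after seeing the data. Promoter windows and gene starts are from RefSeq (GRCh38.p14), with the 50 transcribed bases left out, and all 8 measured genes matched.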

Additional observations from a re-analysis of the deposited data

Results flagged for a closer look

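Among the genes of the lists, the change after BRG1 siRNA differed between the lines for 3 by the test of the difference itself (HCT 116 change minus DLD1 change, limma). SNAI2 differed by 3.94 (adjusted p = 0.00195), a size that is uncertain since 3 of its 4 groups lay below the array medians, JUN by 2.99 (adjusted p = 0.00777) and the polarity gene PARD6B by 1.26 (adjusted p = 0.0344). The SNAI2 and JUN calls held without each of the 12 arrays in turn. The PARD6B call was lost without any of 10 arrays, all but HCT 116 siControl replicate 1 and HCT 116 siBRG1 replicate 1, at adjusted p of 0.0533 to 0.106.

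For 3 further genes every siBRG1 array lay above the controls in DLD1 and below them in HCT 116. The difference was tested and did not pass: -1.29 for GRHL2 (limma, adjusted p = 0.0852), -1.39 for OVOL2, a repressor of mesenchymal genes (adjusted p = 0.128), and -0.59 for the desmosomal plakophilin PKP2 (adjusted p = 0.425). GRHL2 passed without HCT 116 siBRG1 replicate 1 (adjusted p = 0.0194) and with array weights (0.0206). In HCT 116 OVOL2 lay below the array medians in both groups. How many of all genes show this opposite pattern was not counted. In either direction, 15.5% of all genes did not overlap in DLD1 and 24.9% in HCT 116. None of the 8 measured junction genes showed either pattern. Groups of 3 are too small for a check of single outlying arrays.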

How the results depend on the processing

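Signs were followed under the alternatives only for the 8 genes and for list genes called in an siRNA comparison. Among these no called change turned its sign, though a change far enough from 0 to be called has little room to turn. Of their uncalled changes, 15 near 0 did turn (adjusted p of at least 0.756 in limma where turned). With 1 array left out, the change in DLD1 ran from -0.16 to 0.19 for CLDN12, -0.055 to 0.29 for VASP, -0.10 to 0.16 for CDH3, -0.062 to 0.19 for NECTIN1, -0.22 to 0.29 for ZEB1 and -0.12 to 0.32 for CD68, and in HCT 116 from -0.17 to 0.29 for CLDN1. The average ran from -0.18 to 0.094 for CLDN3, -0.12 to 0.033 for CLDN4 and -0.011 to 0.16 for CLDN12. The difference between the lines' changes ran from -0.19 to 0.28 for CLDN7, -0.049 to 0.30 for CLDN12 and -0.12 to 0.38 for ILDR2. HCT 116 minus DLD1 with siControl ran from -0.20 to 0.56 for SNAI2 and -0.041 to 0.16 for CLDN34. In DLD1 CDH3 and NECTIN1 were at -0.033 and -0.031 with a further quantile normalization and at -0.025 and -0.014 with centring, and CLDN1 in HCT 116 was at -0.0063 with array weights. Centring turned the split of the HCT 116 calls, from 499 higher and 731 lower to 615 and 565. Fits that each left out 1 array called 0 to 0 of the 8 genes in DLD1, 0 to 1 in HCT 116, 0 to 2 on average, 0 to 0 for the difference between the lines' changes, 5 to 7 between the siControl lines and 4 to 7 between the siBRG1 lines. Over all genes they called 7 to 66 in DLD1 (35 with all arrays), 618 to 1271 in HCT 116 (1230), 797 to 1593 on average (1536), 26 to 71 for the difference (59), 4135 to 4956 between the siControl lines (4884) and 4642 to 5663 between the siBRG1 lines (5451). With 1 replicate block common to both lines the siRNA counts were 32, 1358, 1660 and 56, and 0, 1, 1 and 0 of the 8. Between the lines it called 5066 with siControl and 5648 with siBRG1, with 7 and 6 of the 8. The replicate block within each line called 98, 2123, 2476 and 102 genes, with 1 of the 8 in DLD1 and 3 on average. The replicate block in DLD1 only called 106 in DLD1 and 98 for the difference, and 3 of the 8 on average. Each line fitted alone called 4 genes in DLD1, and 0 of the 8 in HCT 116. Array weights called 128, 2035, 2306 and 162 genes, with 3 of the 8 on average. The trended and robust prior called 63 in DLD1, with 2 of the 8 on average, and the filter at the median level 3 of the 8 on average. The cause of these shifts was not tested. Values below the array medians, as of CLDN1 and CLDN2 in HCT 116, have no stated detection limit.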
